A study of Sus scrofa with 8 samples.

Results

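Expression of T and B lymphocyte marker genes was described in pig lung across 2 breeds and 2 altitudes. The genes were chosen by name, as the T cell markers CD3D, CD3E, CD3G, CD4, CD8A, CD2, CD5 and CD28 and the B cell markers CD79A and JCHAIN, and all their probes on the array were taken. Of these 10 genes, 8 had a probe in the symbols used here, by 11 probes in all, 10 of T markers and 1 of a B marker (CD79A), out of 3964 named genes and 43603 probes on the array. No probe was assigned to CD28 or JCHAIN, so that the B side of the list rests on CD79A alone. Each of the 11 probes exceeded background clearly on 1 array or more, as 34406 probes of the whole array did, and 10 of the 11 did so on all 8 arrays.

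The 4 groups were Tibetan pigs kept at high altitude (TH), Tibetan pigs at low altitude (TL), Duroc pigs at high altitude (DH) and Duroc pigs at low altitude (DL), with 2 arrays per group and, per the study's methods, 1 female pig per array. High altitude was 3500 m and low altitude 40 m, and lung was taken at 6 months of age. Per the study's methods the 3500 m site was in Yunnan and the 40 m site in Guangdong. An altitude effect therefore cannot be told apart from other differences between the sites. TH and DL pigs stayed where their breed was kept, whereas TL and DH pigs had been moved at 1 month of age. A positive breed effect stands for higher values in Tibetan pigs and a positive altitude effect for higher values at high altitude, and the interaction is the altitude difference in Tibetan pigs less that in Duroc pigs. Slide 1 held the TH and DL arrays and slide 2 the TL and DH arrays. The interaction, the contrast between slides and the contrast between moved and unmoved pigs are therefore the same contrast, and their parts cannot be told apart. The altitude and breed effects are balanced over the slides, and TH with DL, and TL with DH, can be compared within a slide.

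T cells recognise antigen through a receptor whose signal is carried by the CD3 chains, with CD4 or CD8 as co-receptors that bind the presenting molecule, and CD2, CD5 and CD28 as surface molecules that set how strongly the cell responds. B cells use a membrane immunoglobulin whose signal is carried by CD79A and CD79B, and JCHAIN joins the antibodies that plasma cells secrete at mucosal surfaces. In lung both cell types lie in the tissue, in the vessels and in lymphoid aggregates along the airways, so that their marker RNA in whole tissue reads how many such cells were sampled as well as their activity. Fewer cells of a type and less RNA per cell cannot be told apart in these bulk samples.

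The surfactant genes that define lung were bright in every group, with SFTPC between 18.57 and 18.97 on the deposited log2 scale as group means. Arrays of the same group correlated at 0.981 to 0.994 over the tested probes (Pearson's r), and the TL arrays stood apart, at 0.918 to 0.941 to the other groups against 0.961 to 0.967 among those. The median raw signal was 324 and 333.5 on the TL arrays and 207.5 to 230 on the other 6. The arrays of a group differed no more than repeated spots of one array did, with median differences of 0.0465 and 0.0509 (log2, 41 probes with repeated spots), so that the p-values below measure a small spread between 2 arrays per group. Calls are limma's moderated two-way fit at a Benjamini-Hochberg FDR below 0.0001 over all 34406 probes, the threshold of the study's methods.

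Most T marker probes were higher at high altitude, in pigs of both breeds, whereas CD79A was far higher in TH than in the other 3 groups. The altitude effect passed the test for 7 of 11 probes, all of them positive (6 T marker probes and CD79A). CD3D, CD3G and CD4 count here by 2 probes each. At the brightest probe of each of the 7 T genes, 4 were called, all positive, and the median altitude effect was 0.62. Over all tested probes 14% were called with a positive altitude effect, and over the tested probes designed on RefSeq transcripts, as 10 of the 11 were, 25.2%. The median altitude effect over the 10 T marker probes was 0.81 on the log2 scale. It was 0.01 over all tested probes and 0.16 over those with a RefSeq target. Over the 9 T marker probes well above background on all 8 arrays it was 1.01, against 0.06 over all probes that passed this filter. Among these 9 probes, DH arrays lay above DL arrays, with no overlap, for 8, and TH arrays above TL arrays for 7. The share of all tested probes with such an order was not counted, so these counts are a description only. With 1 array left out, 3 to 5 of the 11 probes were called for altitude, beside 3.57% to 6.96% of all tested probes. With both TL arrays left out, DH minus DL was called by limma in 0 of the 11, as in 0 of all tested probes, with 10 of the 11 and 62.1% of all at an unadjusted p below 0.05. At an FDR below 0.05 it was positive for 8 of the 9 T marker probes and negative for CD79A, beside 28.5% of all tested probes called as positive and 29% as negative.

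**Figure D1:**
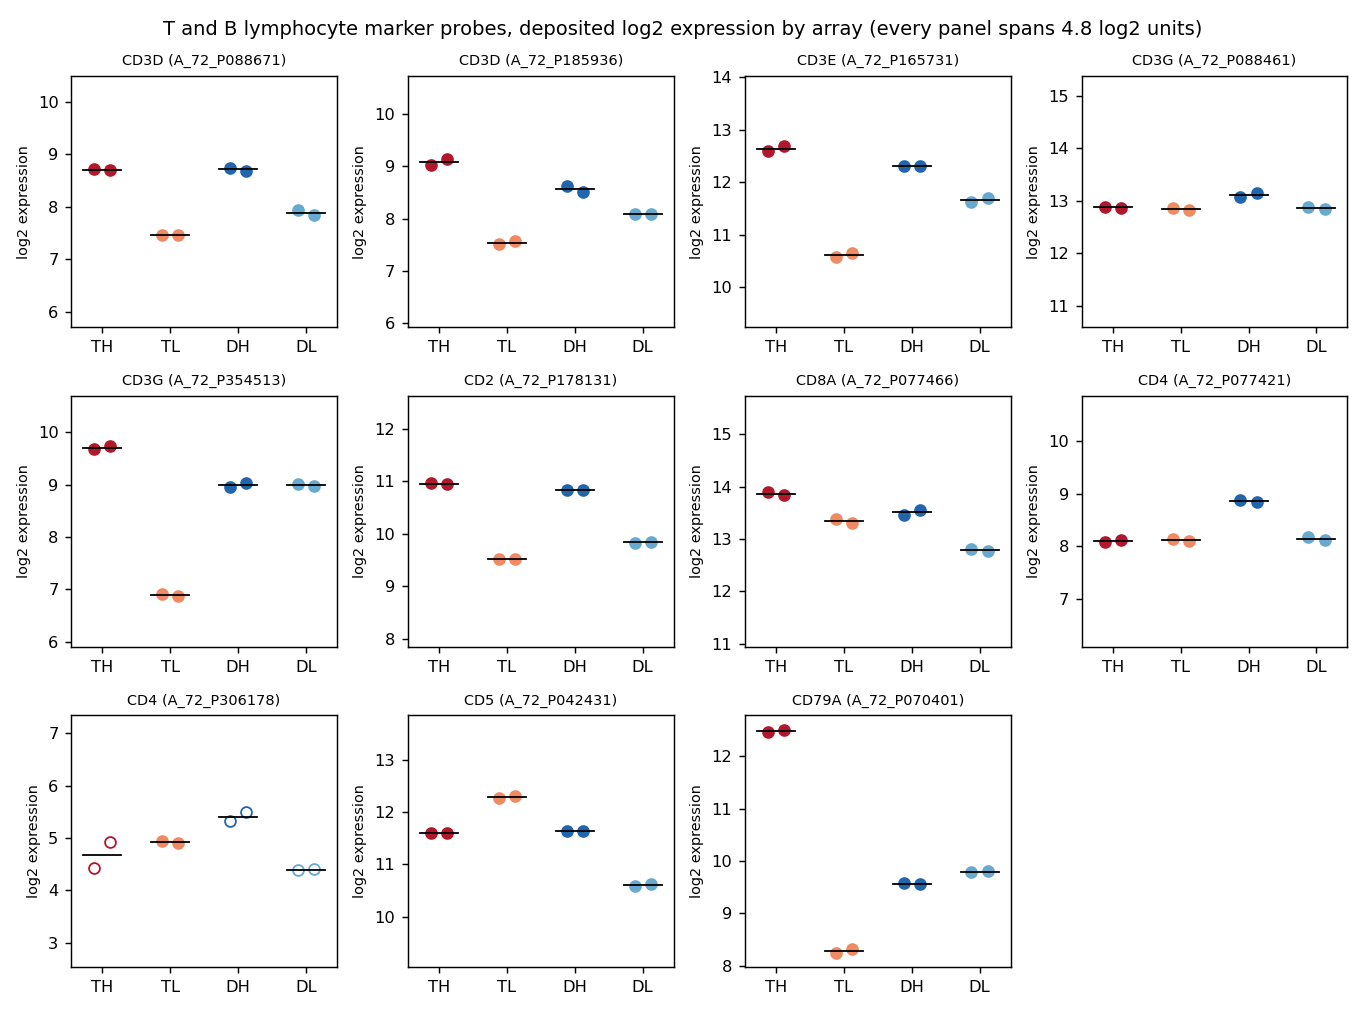
Deposited log2 expression (vertical axis, 4.8 log2 units in every panel) of the 11 T and B marker probes in the TH, TL, DH and DL groups; each point is 1 array, the line is the mean of the 2 arrays, and open points mark groups not well above background on both arrays. CD3D, CD3E and CD2 are higher in TH and DH than in TL and DL, CD79A is high in TH alone, and CD5 is highest in TL.

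Of the CD3 chains, CD3E was measured by probe A_72_P165731. Its log2 values were 12.60 and 12.68 in TH, 10.58 and 10.65 in TL, 12.31 and 12.31 in DH, and 11.62 and 11.70 in DL. No group overlapped another, and the order ran from TH over DH and DL down to TL. TH exceeded TL by 4.07-fold and DH exceeded DL by 1.56-fold, with an altitude effect of 1.34 ± 0.03 (SE, log2, limma adjusted p = 5.94e-06). The interaction of CD3E was 1.38 ± 0.07 (limma adjusted p = 3.46e-05), a call that was lost with any 1 array left out.

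CD3D, the chain encoded next to CD3E, had 2 probes of the same RefSeq transcript. Probe A_72_P088671 gave 8.71 and 8.71 in TH, 7.47 and 7.46 in TL, 8.74 and 8.69 in DH, and 7.93 and 7.85 in DL. Both groups at high altitude overlapped each other and lay above DL, and TL was lowest. Probe A_72_P185936 gave 9.02 and 9.13 in TH, 7.52 and 7.56 in TL, 8.63 and 8.51 in DH, and 8.09 and 8.09 in DL, the same order except that TH lay above DH. The altitude effects of the probes were 1.03 ± 0.03 (SE, log2, limma adjusted p = 5.36e-06) and 1.01 ± 0.04 (limma adjusted p = 1.77e-05), and neither interaction passed the test (0.42, adjusted p = 9.81e-04, and 1.06, adjusted p = 1.57e-04).

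CD3G, which follows CD3D in the annotation of the Sscrofa11.1 assembly, had 2 probes that disagreed, although the array design gives both the same RefSeq transcript. Probe A_72_P354513 gave 9.69 and 9.73 in TH, 6.91 and 6.87 in TL, 8.96 and 9.04 in DH, and 9.01 and 8.98 in DL. TH was highest, TL lowest by 4.31-fold against DL, and the Duroc groups overlapped. Its altitude effect was 1.41 ± 0.03 (SE, log2, limma adjusted p = 3.52e-06) and its interaction 2.82 ± 0.05 (limma adjusted p = 2.02e-06), which was 1.11 with an offset of 50. DH minus DL was 0.00, so that the altitude effect of this probe was the difference of the Tibetan groups. Probe A_72_P088461 lay between 12.83 and 12.89 on the 6 arrays of TH, TL and DL and was 13.08 and 13.15 in DH. This probe passed the test for none of breed, altitude and interaction (adjusted p = 0.00606, 0.00349 and 0.0117), and which of the probes reads CD3G was not tested.

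CD2, an adhesion molecule of T and NK cells, had the altitude effect with the lowest adjusted p among the T markers. Probe A_72_P178131 gave 10.96 and 10.95 in TH, 9.52 and 9.51 in TL, 10.84 and 10.83 in DH, and 9.83 and 9.84 in DL. Both groups at high altitude lay above both at low altitude, by 2.71-fold in Tibetan pigs and 2.00-fold in Duroc pigs, and the altitude effect was 1.22 ± 0.02 (SE, log2, limma adjusted p = 2.51e-06). The interaction was 0.44 ± 0.03 and did not pass the test (limma adjusted p = 1.19e-04).

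CD8A, a chain of the CD8 co-receptor of cytotoxic T cells, was also higher at high altitude. Probe A_72_P077466 gave 13.90 and 13.83 in TH, 13.39 and 13.31 in TL, 13.46 and 13.55 in DH, and 12.80 and 12.77 in DL. TH was highest and DL lowest, and TL lay only 1.12-fold below DH, so that here the lowest group was not TL. The altitude effect was 0.62 ± 0.04 (SE, log2, limma adjusted p = 5.77e-05). TH exceeded TL by 1.43-fold and DH exceeded DL by 1.65-fold, and the interaction (-0.20, limma adjusted p = 0.0482) turned to 0.32 when arrays were scaled to their 75th percentile.

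CD4, the co-receptor of helper T cells, did not show the order of CD3D, CD3E and CD2. Probe A_72_P077421 gave 8.07 and 8.11 in TH, 8.15 and 8.10 in TL, 8.87 and 8.85 in DH, and 8.17 and 8.11 in DL. DH stood above the other 6 arrays, and among those TL overlapped both TH and DL. The breed effect was -0.40 ± 0.02 (SE, log2, limma adjusted p = 7.42e-05) and the interaction -0.75 ± 0.05 (limma adjusted p = 8.78e-05), and both calls were lost with any 1 array left out. The interaction was -1.17 when arrays were scaled to their 75th percentile and -0.38 after a background correction with an offset of 50. The other CD4 probe, A_72_P306178, was well above background on the TL arrays only, at 4.94 and 4.90, and read between 4.38 and 5.50 on the other arrays, where it has only a bound, and it passed no test.

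CD5, a surface molecule that dampens receptor signals in T cells and in some B cells, ran opposite to the CD3 chains in Tibetan pigs. Probe A_72_P042431 gave 11.59 and 11.59 in TH, 12.28 and 12.30 in TL, 11.64 and 11.64 in DH, and 10.59 and 10.63 in DL. TL was highest, 1.62-fold above TH, and DL lowest, with DH 2.04-fold above DL. The breed effect was 0.82 ± 0.02 (SE, log2, limma adjusted p = 3.16e-06), the interaction -1.73 ± 0.03 (limma adjusted p = 2.29e-06), and the altitude effect of 0.17 did not pass the test (limma adjusted p = 5.40e-04). The probe is the only one of the 11 whose symbol comes from the study's own tables alone, which list probes by their test results and were used in part, so that its calls are not independent of how it was named.

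CD79A, which carries the signal of the B cell receptor, was measured by probe A_72_P070401. Its log2 values were 12.46 and 12.51 in TH, 8.25 and 8.32 in TL, 9.58 and 9.55 in DH, and 9.79 and 9.80 in DL. TH stood above the other 6 arrays and TL below them, and in Duroc pigs the order of altitudes was turned, with DH 1.17-fold below DL. TH exceeded TL by 18.4-fold, DH by 7.54-fold and DL by 6.44-fold. The interaction was 4.43 ± 0.05 (SE, log2, limma adjusted p = 9.44e-07), the altitude effect 1.99 ± 0.03 (limma adjusted p = 2.51e-06) and the breed effect 0.70 ± 0.03 (limma adjusted p = 1.25e-05). With both TL arrays left out, the difference by altitude is that of the Duroc groups, -0.23 (limma adjusted p = 0.00576).

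**Figure D2:**
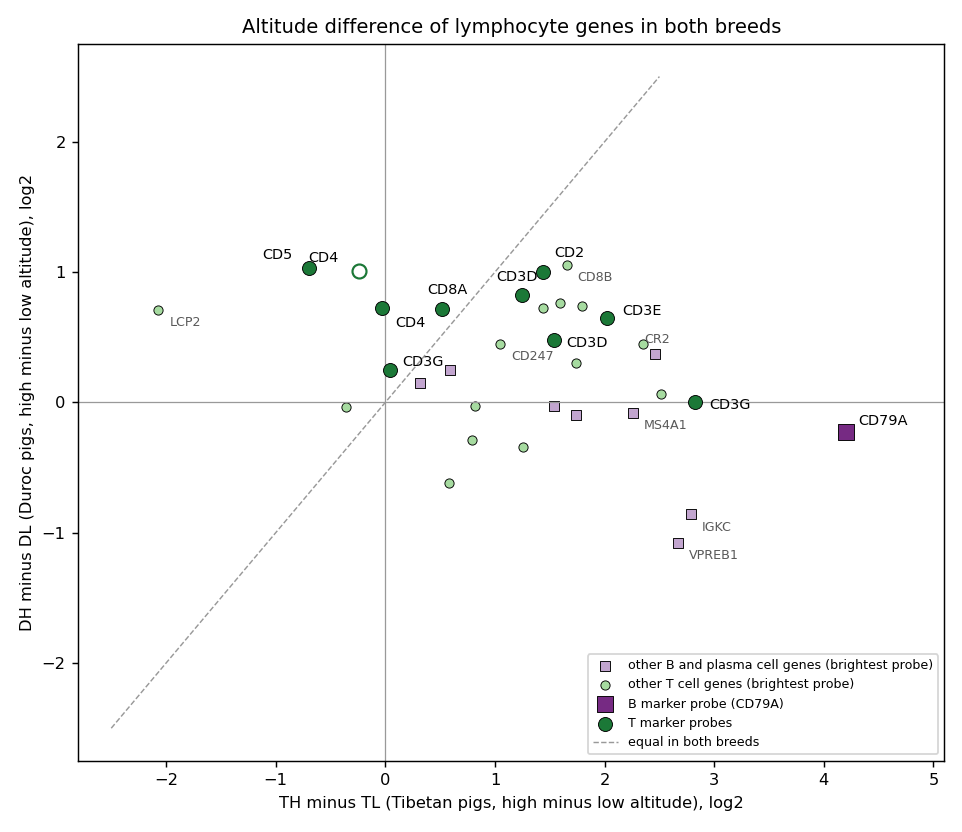
Altitude difference in Tibetan pigs (horizontal axis, TH minus TL, log2) against that in Duroc pigs (vertical axis, DH minus DL, log2); large points are the 11 marker probes (open: the CD4 probe that is above background in TL only), small points the brightest probe of the other T cell and B and plasma cell genes shown, and the dashed line marks an equal difference in both breeds. CD2, CD3D and CD3E lie above 0 on both axes, whereas CD79A, MS4A1 and IGKC lie far to the right and at or below 0 on the vertical axis.

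As a mean over the 7 T genes (brightest probe, log2 less the mean over 8 arrays), T markers stood at 0.36 and 0.38 in TH, -0.32 and -0.33 in TL, 0.33 and 0.33 in DH, and -0.37 and -0.37 in DL. As a mean, TH and DH were thus apart from TL and DL by about the same amount in both breeds. The genes behind it were not alike. High minus low altitude was 2.03 in Tibetan and 0.65 in Duroc pigs for CD3E, and -0.70 and 1.03 for CD5. For CD3G the mean holds the brighter probe A_72_P088461 (0.04 and 0.25), not A_72_P354513 (2.82 and 0.00). CD79A stood at 2.43 and 2.48 in TH, -1.79 and -1.71 in TL, -0.45 and -0.48 in DH, and -0.24 and -0.23 in DL. The T marker mean separated the altitudes, and CD79A separated TH from the rest. The T marker mean hides CD5 and CD4, and is a description with no test.

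The interaction passed the test for 5 of 11 probes, 3 positive (CD3E, CD3G at probe A_72_P354513, and CD79A) and 2 negative (CD4 and CD5). Over all tested probes 28.4% were called for the interaction, and 27.7% over those with a RefSeq target. The median was 0.11 over the 10 T marker probes, against 0.21 over all tested probes and 0.37 over those with a RefSeq target. Over the 9 T marker probes well above background on all 8 arrays it was 0.42, against 0.28 over all probes that passed this filter. At the brightest probe of each of the 7 T genes the median was -0.20. The breed effect passed the test for 4 of 11 probes, beside 27.4% over all tested probes and 28.5% over those with a RefSeq target. It was positive for CD79A and CD5 and negative for CD4 and for CD3G at probe A_72_P354513, a share near that of the array.

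Within slide 1, TH minus DL passed the test for 8 of 11 probes, all positive, beside 6.9% of all tested probes called as positive and 11.7% of those with a RefSeq target. With 1 array left out 0 to 2 were called (0.34% to 1.82% of all tested probes), with the replicate number as a block 1 (0.718%) and without moderation 3 (6%). The differences of the 7 T marker probes among them lay between 0.71 (CD3G, probe A_72_P354513) and 1.12 (CD2) on the log2 scale, and CD79A differed by 2.69 ± 0.04 (SE, limma adjusted p = 3.69e-06). CD4 and the brighter CD3G probe differed by -0.05 and 0.02 and did not pass the test. Within slide 2, TL minus DH passed the test for 8 of 11 probes, 7 negative and 1 positive, beside 18.8% of all tested probes called as negative and 28.5% of those with a RefSeq target. The negative differences ran from -0.74 (CD4) to -2.11 (CD3G, probe A_72_P354513), and CD5 was the positive one, at 0.65 ± 0.02 (SE, limma adjusted p = 1.07e-05). Both comparisons set a breed at high altitude against the other at low altitude, so breed and altitude change together in each.

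**Figure D3:**
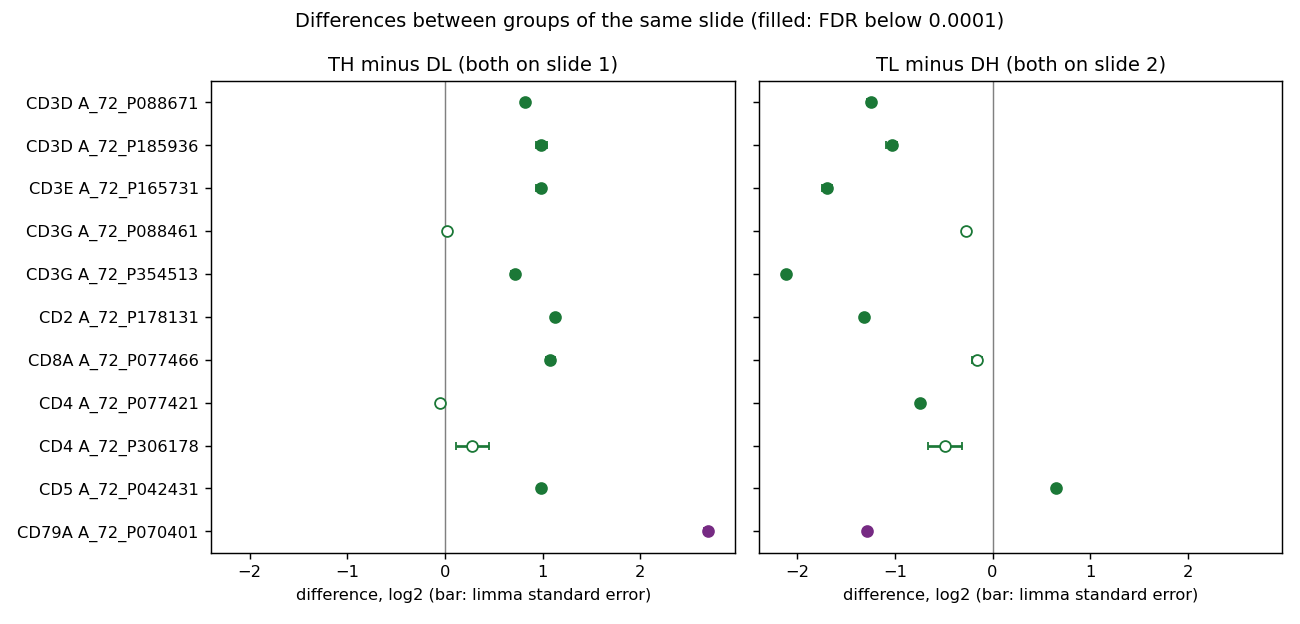
Differences between groups of the same slide for the 11 marker probes (horizontal axis, log2; T markers green, CD79A purple), TH minus DL on the left and TL minus DH on the right; bars are limma standard errors and filled points passed an FDR below 0.0001. CD79A has the largest difference on the left (2.69), the CD3D, CD3E and CD2 probes are positive on the left and negative on the right, and CD5 is positive in both panels.

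TL arrays lay below the other 6 for 5 of the 10 T marker probes and for CD79A, beside 36.9% of all tested probes and 47% of those with a RefSeq target, a share near that of the array. TH arrays lay above the other 6 for 5 T marker probes and CD79A, beside 18.1% and 28.6%. DH arrays were highest for 2 of the 9 T marker probes well above background on all arrays (CD4 and the brighter CD3G probe), beside 12% and 17.4%. DL arrays were lowest for 2 (CD5 and CD8A), beside 14.7% and 10%.

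Other T cell genes were read from a list of 32, of which 28 probes of 15 genes were tested. The altitude effect passed the test in 11 probes as positive and 4 as negative, beside 14% and 12.2% of all tested probes. The interaction passed in 9 as positive and 6 as negative, beside 14.9% and 13.5%. Among the 17 of these probes with a RefSeq target, 9 were positive for altitude and 0 negative by limma at this threshold, and 7 were positive and 0 negative for the interaction. Over all tested probes with a RefSeq target, 25.2% were positive and 10.2% negative for altitude. For the interaction 21.8% were positive and 5.96% negative, so that probes with a RefSeq target lean to positive calls as a whole. CD8B, the partner of CD8A in the co-receptor and its neighbour in the genome, followed CD2 at both of its probes. Probe A_72_P386268 had means of 11.17 (TH), 9.52 (TL), 11.22 (DH) and 10.16 (DL), and probe A_72_P088456 had 10.05, 8.25, 9.92 and 8.94, with altitude effects of 1.36 and 1.39.

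CD247, the zeta chain through which the T cell receptor signals, was higher at high altitude at both probes with a RefSeq target, with altitude effects of 0.75 (probe A_72_P374908) and 0.88 (probe A_72_P226042). The third probe of CD247, A_72_P162021, has no RefSeq target and went the other way, with TL highest at 11.54 and an altitude effect of -0.39. CD40LG, by which helper T cells stimulate B cells, read 7.29 (TH), 4.78 (TL), 6.94 (DH) and 6.87 (DL), and did not pass the test for the interaction (2.45, limma adjusted p = 2.73e-04). IL2RA, a receptor chain of activated T cells, could be read only as a bound in TL, below background there, and TH exceeded TL by at least 3.64-fold and DH by at least 4.02-fold. LCP2, an adaptor of receptor signalling, was highest in TL at 14.57 against 11.68 in DL, with an interaction of -2.78, and its probe has no RefSeq target. GATA3, a regulator of helper T cells, had an interaction of -0.32 at its brightest probe that did not pass the test. With scaling to the 75th percentile it was 0.19. Of the other GATA3 probes only A_72_P123751, without a RefSeq target, passed the test for the interaction, at -0.66 (limma adjusted p = 5.45e-05).

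Other B and plasma cell genes were read from a list of 31, of which 17 probes of 10 genes were tested. The interaction passed the test in 11 probes, all positive, and the altitude effect in 12, all positive. Over all tested probes 14.9% and 14% were called as positive. Both TH arrays lay above the other 6 for 15 of the 17, beside 18.1% of all tested probes. Some genes, such as CD40 and XBP1, count here by several probes. At the brightest probe of each of the 10 genes, the interaction was called as positive in 8 and TH was highest in 8. The median interaction of the 17 probes was 1.84, against 0.21 over all tested probes. Of these probes 9 were named by the study's tables alone. Among the 8 with a RefSeq target, 4 had a positive called interaction and 6 were highest in TH. Over all tested probes with a RefSeq target these shares were 21.8% and 28.6%. The median interaction of the 8 was 0.96, against 0.37 over all tested probes with a RefSeq target.

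MS4A1, the B cell surface molecule CD20, read 14.55 (TH), 12.29 (TL), 12.63 (DH) and 12.71 (DL) at probe A_72_P099581, and 10.47, 8.69, 8.25 and 8.85 at probe A_72_P240222. TH was highest at both, and the interactions were 2.34 and 2.38. IGKC, the constant part of the kappa light chain, read 18.38 in TH against 14.84 to 15.69 in the other groups, with an interaction of 3.65, and its family of near-identical genes may share the probe. VPREB1, a part of the receptor of immature B cells, went another way: it was highest in DL at 12.21, followed by 11.69 in TH, 11.13 in DH and 9.02 in TL, with an interaction of 3.74. No probe was assigned to CD79B, the partner of CD79A.

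**Figure D4:**
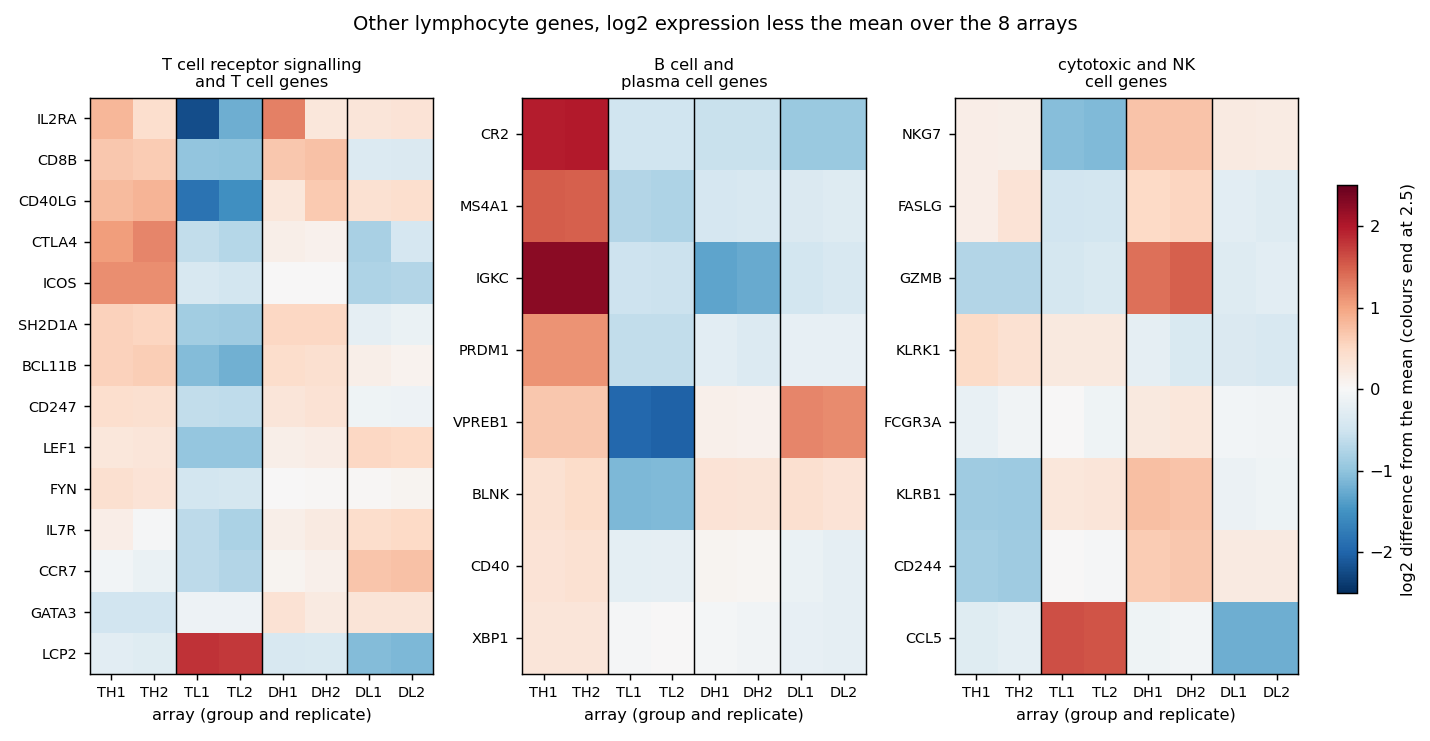
Log2 expression less the mean over the 8 arrays (colour, red above and blue below the mean, colours end at 2.5) of the brightest probe of the other T cell, B and plasma cell, and cytotoxic and NK cell genes shown; columns are arrays by group and replicate, rows genes in order of the altitude effect. CR2, MS4A1, IGKC and PRDM1 are red on the TH arrays alone, whereas CD8B and SH2D1A are red in TH and DH.

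Cytotoxic and NK cell genes, which CD8 T cells and NK cells share, were mostly highest in DH, with no common order of the other groups. Of 8 tested probes, 6 were highest in DH, beside 12% of all tested probes. The interaction was called as negative in 4 and as positive in 1, beside 13.5% and 14.9% of all tested probes. The altitude effect was called as positive in 3 and as negative in 1, beside 14% and 12.2%. GZMB, a granule protease, had means of 12.26 (TH), 12.59 (TL), 14.42 (DH) and 12.70 (DL), with an interaction of -2.05. KLRB1, a receptor of NK cells, was highest in DH at 12.29 and lowest in TH at 10.65, with an interaction of -2.06. CCL5, a chemokine released by T and NK cells, was highest in TL at 12.55 and lowest in DL at 9.74, with an interaction of -3.00. NKG7, a granule protein, was higher at high altitude in both breeds, with means of 13.36 (TH), 12.12 (TL), 13.92 (DH) and 13.42 (DL). Its altitude effect was 0.87 and its interaction 0.75, both called. The interaction of KLRK1 was 0.10 and did not pass the test.

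Markers of other cell types moved between the groups as well. The mean log2 level of 7 macrophage genes was 14.43 on both TH arrays, 14.66 and 14.67 in TL, 15.27 and 15.25 in DH, and 15.40 and 15.40 in DL. Among their 11 probes, DH was highest in 8 and TH lowest in 6, and 7 had a called negative breed effect. Over all tested probes these shares were 12%, 13.9% and 14.6%. At the brightest probe of each of the 7 genes, DH was highest in 4, TH lowest in 3 and the breed effect called as negative in 5. LYZ, the lysozyme of macrophages and neutrophils, read 17.44 in DL, 15.92 in DH, 15.56 in TL and 13.48 in TH. The mean of 9 lung tissue genes lay between 15.53 and 15.91 on all arrays, with the TH arrays lowest, and the sole neutrophil probe, of NPG4, was highest in TL at 12.92. None of the defining macrophage or lung genes with a probe was near background, and the part of these cells in the lymphocyte differences was not tested.

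Genes whose values ran most like the T marker mean over the 8 arrays, among 3820 named genes, were TRIB2 (Pearson's r = 0.996), SFN (0.994), CYB5B (0.994), TNXB (0.994) and EEF1G (0.993). TRIB2, for example, read 8.54 (TH), 7.45 (TL), 8.49 (DH) and 7.33 (DL). Those most like CD79A were ITGAE (0.999), PHGDH (0.999), MC1R (0.999), NNMT (0.998) and SERPINI1 (0.998). ITGAE, an integrin chain of lymphocytes within epithelia, read 13.88 (TH), 12.71 (TL), 13.05 (DH) and 13.13 (DL). With 4 groups of 2 near-equal arrays these correlations compare 4 group means, and are given as a description.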

How the data were processed

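Lung RNA was labeled with Cy3 and hybridized to Agilent 1-color porcine arrays by the authors, who extracted spot signals with Agilent Feature Extraction (version 10.7.3.1 in the file headers, 9.1 per the labels' processing notes). The deposited scanner files hold spot intensity. The main values were the log2 table that the authors deposited, normalized by RMA per the study's methods. Its columns shared 1 distribution with a median of 7.40 and had a Spearman's rho of at least 0.999987 with the processed signals; the direction is therefore settled, and the exact background step is unknown. Against log2 processed signals, its slope over the brighter probes was 0.95 to 0.98 on 6 arrays and 1.12 and 1.13 on the TL arrays, so that differences of bright probes against TL are stretched on this scale.

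Probes were named by the RefSeq accession of the array design or by the study's tables, which were used in part and favour changed probes: 5678 of 43603 probes had a symbol (3964 genes), 2683 of 3250 RefSeq targets matched, and 98% of the 660 probes named both ways had the same symbol. No probe sequences were used here. Outlier spots were left out where scanner files were used, control spots throughout, and no spot was saturated. The two-way model was fitted in R 4.3.3 with limma 3.58.1 on 34406 probes well above background on at least 1 array. The script was tested on simulated data before use.

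A fold against a group below background was taken from that group's lowest signal among probes well above background. Genes named beside the markers were, at each list's brightest probes, the 3 largest positive and 3 largest negative interactions, and CD8B, CD247, CD79B and MS4A1 at every probe, apart from a few genes that are not reported here; CR2, PRDM1 and SH2D1A are named in captions after their values were seen. The lists covered T, B and plasma, cytotoxic and NK, pan-leukocyte, macrophage, neutrophil and lung tissue genes and lymphoid chemokines. The members and lists were chosen with earlier results of these data known. Alternatives were other background corrections, scaling, filters, thresholds, blocks and tests, and each array left out. Figures were drawn with matplotlib 3.10.9 in Python 3.11.15. The number of arrays, 2 per group, limits the precision.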

Additional observations from a re-analysis of the deposited data

Results flagged for a closer look

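The altitude difference of 5 marker probes differed between the breeds by the interaction test (limma, FDR below 0.0001, adjusted over all tested probes). For CD79A (A_72_P070401) it was 4.20 in Tibetan and -0.23 in Duroc pigs, an interaction of 4.43. For CD3G (A_72_P354513) it was 2.82 and 0.00, an interaction of 2.82, and for CD3E (A_72_P165731) 2.03 and 0.65, an interaction of 1.38. For CD5 (A_72_P042431) it was -0.70 and 1.03, an interaction of -1.73, and for CD4 (A_72_P077421) -0.03 and 0.72, an interaction of -0.75. The calls of CD3E and CD4 were lost with any 1 array left out. The interaction is also the contrast between slides and between moved and unmoved pigs, which cannot be told apart. Groups of 2 arrays allow no search for an array that stands out within its group.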

How the results depend on the processing

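Altitude effects of the T markers and the interactions of CD79A, CD5 and CD3G (A_72_P354513) kept their direction under all alternatives, but not their size: with an offset of 50 the interaction of CD3G (A_72_P354513) was 1.11 and that of CD79A 3.15, and the breed effect of that CD3G probe, -0.70, was -0.14. With both TL arrays left out, the altitude effect of CD3G (A_72_P354513), 1.41 in the main fit, was 0.00. Calls of the 11 probes moved more. Without 1 array, calls numbered 1 for breed, 3 to 5 for altitude, 3 for the interaction, 0 to 2 for TH minus DL and 3 to 6 for TL minus DH, and over all tested probes 6.51% to 10.4%, 3.57% to 6.96%, 7.78% to 11.3%, 0.34% to 1.82% and 9.14% to 20.9% were called. In all 8 such fits CD79A, CD2 and CD3G (A_72_P354513) remained called for altitude, CD79A, CD5 and CD3G (A_72_P354513) for the interaction, and CD5 for breed, whereas the altitude calls of CD8A and CD3D (A_72_P185936) were lost in all 8, as were the interaction calls of CD3E and CD4. The lone array of a group was then assumed to vary like the other groups. With both TL arrays left out, an alternative chosen after seeing the data, altitude as DH minus DL was called by limma in 0 marker probes and in 0 of all 34406 probes (10 marker probes and 62.1% of all at an unadjusted p below 0.05), TH minus DL in 1, and the altitude effect of CD79A turned to -0.23. At an FDR below 0.05, 9 probes were called for breed, 11 for altitude and 11 for the interaction, beside 71.6%, 70.8% and 73.7% of all tested probes. From raw median signals, 3 were called for the interaction and 4 for TH minus DL, and without moderation 3 for TH minus DL. Same-numbered arrays did not deviate together (r from -0.04 to 0.09), so the numbers do not pair them; with the replicate block 1 was called for breed, 1 for TH minus DL and 5 for TL minus DH, beside 3697, 247 and 5980 of all 34406 probes. Slide as a block could not be fitted with the interaction and gave 4 calls for breed and 7 for altitude. Scaling to the 75th percentile moved the median interaction of all probes from 0.21 to 0.34, and an offset of 50 to 0.07. Scaling turned the breed effects of CD3D (0.013 at A_72_P088671 and 0.20 at A_72_P185936), CD2 (0.036) and the dim CD4 probe (0.19), and the interactions of CD8A (0.32), CD3G at A_72_P088461 (0.27), GATA3 (0.19), ITGB2 (0.31) and VWF (0.25). Of altitude calls over all probes, 64.7% were then positive, against 53.4%. The breed effect of CD3D at A_72_P185936, -0.02, was also above 0 from raw signals (0.021) and with an offset of 50 (0.045), and without 1 array it lay between -0.052 and 0.0053, above 0 without TH1 or DH1. Without 1 array the breed effect of the dim CD4 probe lay between -0.23 and 0.022 (above 0 without TH1), and the interaction of CD14 between -0.014 and 0.044 (below 0 without TH1, DH2 or DL2). The cause was not tested.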

Other observations

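Lymphoid chemokines and homing molecules, which guide lymphocytes into tissue, were read at 8 probes. The interaction was called in 5, all positive, and TL was lowest in 6, beside 14.9% and 36.9% of all tested probes. MADCAM1, a vessel ligand of homing lymphocytes, had means of 11.94 (TH), 8.25 (TL), 10.98 (DH) and 10.74 (DL) and an interaction of 3.46. LTA, a cytokine that organises lymphoid tissue, had an interaction of 1.98 with TH highest at 9.91, and CCL21, a chemokine that attracts T cells, 1.14 with DH highest at 11.43.

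Of 6 probes of genes shared by most leukocytes, 5 were highest in TH and 3 had a called positive interaction. Over all tested probes these shares were 18.1% and 14.9%. CD69, an early mark of activation, had means of 10.58 (TH), 8.78 (TL), 8.58 (DH) and 9.23 (DL), with an interaction of 2.45. CYTIP, a regulator of leukocyte adhesion, had an interaction of 2.36 and IL2RG, the shared cytokine receptor chain, 1.56. ITGB2, a leukocyte integrin chain, had -0.20 at its brightest probe, which did not pass the test and was 0.31 with scaling to the 75th percentile.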
